A study of Mus musculus with 9 samples.

Results

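N2a cells carrying shArf1-2, a short hairpin RNA against Arf1, were compared with N2a cells carrying a hairpin against luciferase (shlucif, the control) across every gene of the deposited table. The comparison rests on 6 of the 9 RNA-seq libraries of the study, 3 with shArf1-2 and 3 with shlucif, chosen by the hairpin that the labels name. The other 3 libraries carry a different Arf1 hairpin, shArf1-1, and serve here to estimate the spread between libraries and to ask whether a change differed between the hairpins. N2a (Neuro-2a) is a mouse neuroblastoma line, which the labels list under brain as tissue and neuroblast as cell type. The hairpins were delivered in pLKO.1 lentiviral vectors with puromycin resistance, so that all 3 groups share the vector and its selection marker, and no library came from cells without a hairpin. No drug treatment is listed for any sample, and no time after infection is stated in the sources used here. Nothing in the labels says that the 3 libraries of a group came from separate infections, so the p-values measure the spread between these libraries, which may be technical.

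Arf1 is a small GTPase of the Golgi. In its GTP-bound form, which exchange factors such as Gbf1 produce, it recruits the COPI coat and clathrin adaptors to Golgi membranes, and GTPase-activating proteins switch it off again. It is also known as a regulator of lipid droplets and of lipid breakdown, and in the nervous system its loss from neurons has been linked to lipid accumulation. N2a cells derive from the sympathoadrenal lineage of the neural crest, whose identity is set by factors such as Phox2a, Hand2 and Gata3.

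The shArf1-2 target is shown first because the whole comparison depends on what this hairpin can reach. It matches Arf1 (ENSMUSG00000048076) without a mismatch at chr11:59213386-59213406 of GRCm38, on the minus strand, in exon 2 of 5 of its transcript and inside the coding sequence, where it covers codons 28 to 34. Below it stand the most similar stretches of the coding transcripts of the other Arf genes in GENCODE M21, with every base that differs from the target in capitals.
shArf1-2 target and Arf1: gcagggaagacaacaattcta
Arf2: gcTggCaaAacGacGatCTtG
Arf3: gcCgggaagacCacCatCctC
Arf4: gcTggCaagacGacaattctG
Arf5: gcTggCaagacTacCatCctG
Arf6: gcCggCaagacaacGatCctG
The target differed from Arf4 at 4 bases, from Arf3 and Arf6 at 5 each, from Arf5 at 6 and from Arf2 at 8. The strand of the hairpin that pairs with the transcript reads as follows, with its seed (bases 2 to 8) in capitals.
shArf1-2 guide: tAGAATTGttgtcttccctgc
A search of all annotated transcripts found the whole target in 3 genes, Arf1 and the pseudogenes AC127331.2 and Gm19587, neither of which is listed in the deposited table. Reads from these copies cannot be told apart from Arf1 reads over the shared stretch. No gene held the target with 1 or 2 mismatches. Among the 2 tested genes with 3 mismatches, Eif5b, a translation initiation factor, rose by 0.29 on the log2 scale and Arl5c, an Arf-like GTPase, had a change of 0.23 (adjusted p = 0.613, edgeR). At 4 mismatches, 16 genes were tested, of which 6 were lower and 3 were higher, beside 32.6% lower and 30.9% higher among all tested genes. The lower ones included Hivep3, Nav2 and Ticam1, with fitted log2 changes of -7.57, -5.19 and -1.13. The higher ones included Ttn and Rapgef2, at 1.15 and 0.86. Of all 12448 tested genes, 386 were at least 8-fold lower. Whether the hairpin acted on any of these genes was not tested. Matches to the seed alone and to the other strand of the hairpin were not searched, so this is no full survey of its reach.

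Arf1 itself was at 328, 316 and 328 FPKM in the shlucif libraries and at 166, 157 and 171 FPKM in the shArf1-2 libraries. FPKM divides reads by gene length and by the reads of the library, and the 2 groups did not overlap. The fall was 1.05 on the log2 scale (SE 0.05), with an adjusted p of 4.2e-19 in the quasi-likelihood test of edgeR, adjusted by the Benjamini-Hochberg method, which left about 0.48 of the control level by the fit. Unless a p is given, a gene called higher or lower, risen or fallen below had an adjusted p under 0.05 in the same edgeR test over all tested genes. Of the paralogs, Arf6, which acts at the plasma membrane and endosomes, went from 89.3, 88.7 and 95.7 FPKM to 55.6, 55.3 and 57.1 FPKM, a fall of 0.77. Arf5, a further Golgi Arf, fell by 0.55. Arf2, Arf3 and Arf4 had log2 changes between -0.10 and 0.05 that did not pass the threshold, so no paralog rose. The gene Arf2 shares only its number with the deposited column names of this hairpin.

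The 6 libraries held between 13381570 and 14659400 counts, 12448 genes were tested, and the first principal component of the 6 libraries, with 89.8% of the variance, separated the groups. An adjusted p under 0.05 was reached by 7897 genes, 63.4% of those tested. With shArf1-2, 3843 of them (30.9%) were higher and 4054 (32.6%) lower. These shares are the background for every count of list members below. Most of the changes were small, since 79.6% of the genes past the threshold changed by less than 2-fold. The large changes were mostly falls. At least 2-fold, 530 genes were higher and 1079 lower, and at least 8-fold, 18 were higher and 386 lower. In 8439 genes (67.8%) the 3 shArf1-2 libraries lay entirely on one side of the 3 shlucif libraries. The median change of all tested genes was 0.0015 on the log2 scale. It was 0.07 when libraries were scaled by their total counts alone, as FPKM is, so that ratios of FPKM values run slightly above the fitted fold changes.

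**Figure D1:**
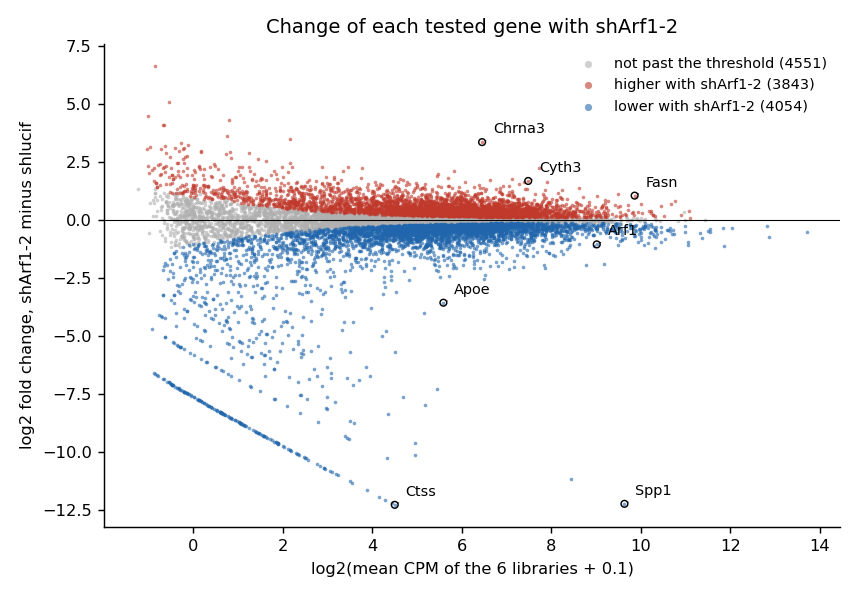
Each point is one of the 12448 tested genes, placed by its mean level over the 6 libraries (log2 of mean CPM plus 0.1, where CPM are counts scaled to a common library size) and its log2 fold change with shArf1-2, and coloured by direction where the adjusted p was under 0.05. The lower left holds a long tail of falls without a mirror image above, and its straight lower edge is made of genes at 0 counts in every shArf1-2 library, whose fitted change depends on the prior count and is no measured size.

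The control libraries held transcripts that do not belong to the neuroblast label. Of 35 macrophage and microglia markers, 31 were tested, 30 were lower with shArf1-2 and 1, Tmem119, was higher. Their summed level was between 2729 and 3208 CPM with shlucif, against 33.4 to 37.4 CPM with shArf1-2. Spp1, which encodes the secreted phosphoprotein osteopontin, had 22641, 20594 and 19663 counts in the shlucif libraries and 5, 3 and 6 in the shArf1-2 libraries. Gpnmb, a glycoprotein of lysosome-rich macrophages, had 10230, 9147 and 8201 counts against 7, 3 and 3. Both were thus among the abundant transcripts of all 3 control libraries and near the floor in all 3 shArf1-2 libraries. With mean levels of 1588 CPM for Spp1 and 696 CPM for Gpnmb with shlucif, they carried most of the summed marker level there.

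Ctss, the lysosomal protease cathepsin S, had 649, 564 and 573 counts with shlucif and 0 in every shArf1-2 library, at least 648-fold lower when 3 counts over the group are taken as the floor. By the same floor Ccl3, a chemokine, was at least 553-fold lower and Spi1, the transcription factor PU.1 that defines the myeloid lineage, at least 159-fold lower. Spi1, Ptprc (CD45) and Adgre1 (F4/80) were at 0 in all 3 shArf1-2 libraries, as were 17 of the 35 markers. P2ry12 and Cx3cr1, markers of resting brain microglia, and Aif1 were near 0 in the control libraries too. Their counts there were 0, 0 and 1 for P2ry12, 1, 1 and 2 for Cx3cr1 and 3, 2 and 5 for Aif1. Tmem119, a further marker of resting microglia, differed from these and rose by 1.43 with shArf1-2. The median change of the tested markers was -7.96 as fitted, and -7.25 with the 13 members at 0 set to their bounds. All 3 control libraries carried these transcripts, so no control library is without them and the comparison cannot be repeated without them. In bulk RNA, fewer cells of a type and less RNA per cell cannot be told apart. The part of these transcripts in the other results was not tested.

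**Figure D2:**
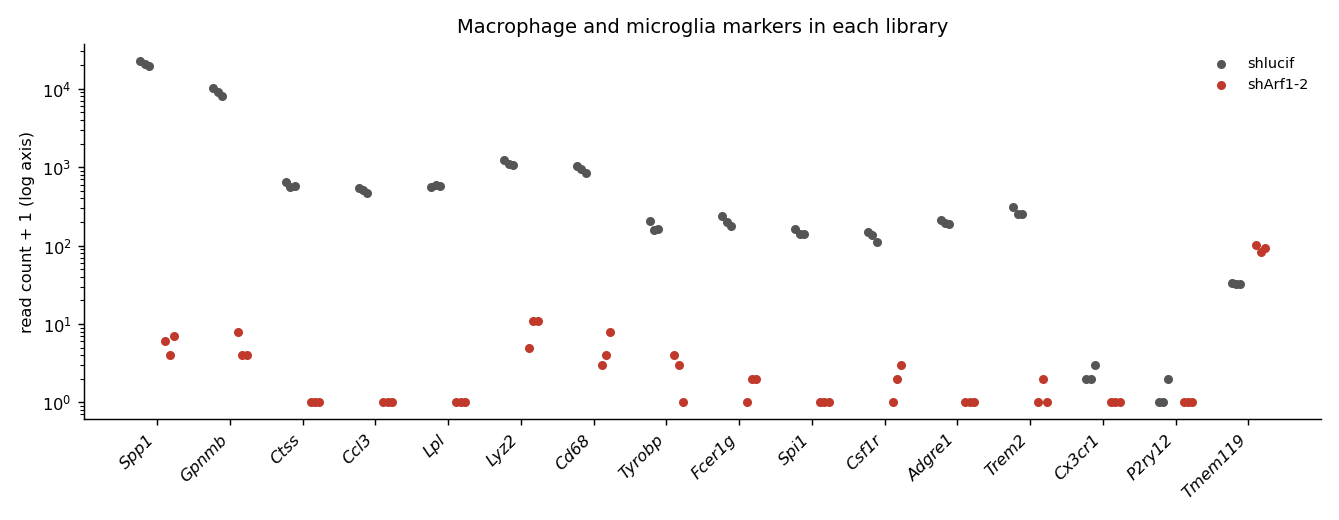
Read counts plus 1, on a log axis, of 16 macrophage and microglia markers, with 1 point for each of the 3 shlucif (grey) and 3 shArf1-2 (red) libraries. For 13 markers the groups lie far apart with shlucif above, Cx3cr1 and P2ry12 are near 0 in all 6 libraries, and Tmem119 lies the other way round.

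Markers of other cell types were low in both groups. The summed level of 7 astrocyte markers was between 2.56 and 3.26 CPM with shlucif and between 0.288 and 0.697 CPM with shArf1-2, and that of 8 lymphocyte markers stayed between 0.134 and 1.515 CPM. Endothelial markers summed to between 35.9 and 38.2 CPM with shlucif and to between 14 and 17.5 CPM with shArf1-2, and 3 of 4 tested members were lower. Fibroblast markers summed to between 43.9 and 45.3 CPM against between 21.4 and 23, with 2 of 4 tested members lower. The 8 oligodendrocyte markers summed to between 39.4 and 40.95 CPM with shlucif and to between 32.3 and 35.3 CPM with shArf1-2. Of these, 2 were tested and 1 was lower.

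The lineage markers of the N2a cells themselves were present in both groups and on balance higher with shArf1-2. Of 15 tested sympathetic noradrenergic factors and enzymes, 11 were higher, 0 lower and 4 did not pass, with a median change of 0.62. Phox2a, a homeodomain factor of this lineage, rose by 0.47 from a level near 80 FPKM. Insm1, a zinc finger factor of neuroendocrine precursors, was at 5.69, 5.57 and 5.87 FPKM with shlucif and at 17.3, 15.7 and 19.6 FPKM with shArf1-2, a rise of 1.55. The transcription factors Gata3 and Isl1 rose by 1.33 and 0.62, and Mycn, the oncogene of many neuroblastomas, by 0.50. Of the enzymes of catecholamine synthesis, Dbh and Ddc rose by 1.42 and 1.95 from levels under 1 FPKM, and Th, the first enzyme of the pathway, had between 13 and 19 counts in every library and a change of 0.24 (adjusted p = 0.596, edgeR). Hand2 varied widely within the groups, at 35.4, 53.3 and 47 FPKM against 63.3, 52.6 and 90.6 FPKM, and did not pass (adjusted p = 0.0945, edgeR). The receptor tyrosine kinase Ret, at over 120 FPKM in every library, had a change of -0.01.

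Neuronal receptor and vesicle genes held some of the sharpest rises. Chrna3, the alpha3 subunit of ganglionic nicotinic acetylcholine receptors, had 228, 191 and 198 counts with shlucif and 2290, 2194 and 2387 with shArf1-2. Its rise of 3.35 on the log2 scale (SE 0.07, adjusted p = 6.01e-29, edgeR) was the largest of any gene with at least 5 CPM in every one of the 6 libraries. Of 5 tested nicotinic subunits, 4 were higher, among them Chrna7 by 0.90 and Chrnb2 by 0.63. Chrna5, which shares a genomic cluster with Chrna3, rose by 1.59 from between 9 and 15 counts. The muscle-type subunit Chrnb1 was lower, by 1.00.

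Of 23 tested synaptic and dense-core vesicle genes, 13 were higher and 5 lower, with a median of 0.30. Sv2c, a synaptic vesicle glycoprotein, was at 22.1, 21.6 and 20.9 FPKM with shlucif and at 61.1, 58.8 and 58.2 FPKM with shArf1-2. Chgb, a granin that fills dense-core granules, went from 157, 163 and 160 FPKM to 367, 364 and 364 FPKM, a rise of 1.12, and the related Chga rose by 0.91. In neither Sv2c nor Chgb did the groups come near each other. Another granin, Scg2, went the other way, from 223, 222 and 247 FPKM to 160, 153 and 153 FPKM, a fall of 0.64. The SNARE protein gene Snap25 and the calcium sensor gene Syt1 rose by 0.39 and 0.47. Cplx2, a complexin that controls vesicle fusion and not a member of the list, rose by 1.78.

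The neuronal cytoskeleton changed gene by gene. Among 15 tested members 9 were higher and 3 lower, with a median of 0.24. Ina (alpha-internexin), an intermediate filament protein, was at 14.4, 13.8 and 13.3 FPKM with shlucif and at 47.7, 47.7 and 48.1 FPKM with shArf1-2, a rise of 1.72. Tubb3, the neuronal beta-tubulin, rose by 0.69 and the microtubule-associated Map1b by 0.82, both from high levels. The peripheral filament gene Prph, with over 700 FPKM in every library, fell by 0.33, and Mapt (tau) and Map2 fell by 0.48 and 0.58. Dcx (doublecortin) rose from 0, 0 and 5 counts to 21, 20 and 16.

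Lysosomal genes fell together. None of 22 tested lysosomal membrane, protease and biogenesis genes was higher and 19 were lower, with a median of -0.93. Of 12 tested enzymes and activators of lysosomal sphingolipid breakdown, 11 were lower and 0 higher, with a median of -0.89. Ctsb, a broadly expressed cathepsin, was at 114, 110 and 109 FPKM with shlucif and at 30.3, 30.3 and 31.9 FPKM with shArf1-2, a fall of 1.92 (SE 0.05, adjusted p = 5.41e-26, edgeR). Ctsl fell by 2.04, and Grn, the progranulin gene, went from 130, 127 and 123 FPKM to 48.9, 47.2 and 46.8 FPKM. All 3 of these genes remained well expressed with shArf1-2, at 9.78 FPKM or more in each library. The aspartic protease gene Ctsd fell by 0.88, the protective protein gene Ctsa by 0.94 and the lysosomal membrane gene Lamp1 by 0.53.

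Among the sphingolipid-degrading genes, Asah1, the acid ceramidase, was at 61.9, 66.1 and 67.7 FPKM against 33.7, 30.9 and 31.4 FPKM, a fall of 1.10. The saposin precursor Psap, the most abundant member, fell by 0.59 from 545, 511 and 518 FPKM to 366, 370 and 366 FPKM. In both of these genes the groups did not overlap. Smpd1, the acid sphingomyelinase, fell by only 0.24 and its groups did overlap, and Galc was the member that did not pass. The drop of the summed macrophage marker level described above runs through the whole comparison, for genes that rose as for those that fell. Its part in these falls was not tested.

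The regulators of lysosomal genes moved unevenly. Tfeb, a transcription factor that drives lysosomal genes, was at 10.2, 10.1 and 11.3 FPKM with shlucif and at 5.78, 5.07 and 4.98 FPKM with shArf1-2, a fall of 1.07. Its relative Mitf fell by 1.38 at a low level, whereas Tfe3 had a change of 0.03 (adjusted p = 0.71, edgeR). Flcn, the folliculin gene that restrains these factors in fed cells, and its partner Fnip2 fell by 1.24 and 0.99.

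TFEB and its relatives bind E-boxes with the core CACGTG, so this core was looked for in RefSeq promoter windows (250 bases before to 50 after a start, GRCm38.p6) on both strands. Of tested genes with a window, 9917 in all, 11.7% held CACGTG and 4.72% held the longer GTCACGTG, which contains it. Among 19 lysosomal membrane, protease and biogenesis genes with a window, 36.8% held the core and 21.1% the longer form. The core was also above its share among all tested genes in lists that did not fall together, at 21.4% of fatty acid synthesis and 20% of cholesterol genes, and it was held by 21.1% of autophagy genes. Among 9 sphingolipid breakdown genes, 33.3% held the core, and the same 33.3% the longer form. The windows of Ctsa, Ctsd and Gla, the lysosomal genes with the longer form whose fall was largest, are printed with it in capitals.
Ctsa, chr2:164833523-164833822, plus strand: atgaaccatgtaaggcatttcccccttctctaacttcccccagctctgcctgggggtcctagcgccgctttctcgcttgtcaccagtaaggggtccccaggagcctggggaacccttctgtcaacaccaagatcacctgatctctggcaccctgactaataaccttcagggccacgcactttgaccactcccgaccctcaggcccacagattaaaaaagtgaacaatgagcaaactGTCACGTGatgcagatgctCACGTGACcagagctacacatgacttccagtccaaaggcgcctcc
Ctsd, chr7:142387778-142388077, minus strand: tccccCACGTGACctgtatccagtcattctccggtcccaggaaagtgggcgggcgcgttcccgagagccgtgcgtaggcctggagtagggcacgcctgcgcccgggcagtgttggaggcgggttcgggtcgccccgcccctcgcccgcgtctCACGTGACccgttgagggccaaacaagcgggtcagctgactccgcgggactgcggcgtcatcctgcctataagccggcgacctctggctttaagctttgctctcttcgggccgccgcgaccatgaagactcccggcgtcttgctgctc
Gla, chrX:134600956-134601255, minus strand: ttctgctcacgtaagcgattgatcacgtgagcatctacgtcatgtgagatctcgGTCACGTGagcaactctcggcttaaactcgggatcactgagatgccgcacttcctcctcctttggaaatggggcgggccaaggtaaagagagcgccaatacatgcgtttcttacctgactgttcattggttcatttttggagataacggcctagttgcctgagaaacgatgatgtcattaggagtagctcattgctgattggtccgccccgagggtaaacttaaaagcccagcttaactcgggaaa
The windows of Ctsa and Ctsd each held the longer form 2 times. A match of letters is a description and not a binding site.

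Autophagy genes were lower as well. Of 23 tested receptors and core factors, 17 were lower and 2 higher, with a median of -0.48. Sqstm1, the ubiquitin-binding receptor p62, was at 415, 405 and 447 FPKM with shlucif and at 214, 206 and 204 FPKM with shArf1-2, a fall of 1.09. Ulk1, the kinase that starts autophagosome formation, went from 12.8, 12.8 and 13 FPKM to 5.79, 6.32 and 5.46 FPKM, and Wipi1, a phosphoinositide-binding scaffold, fell by 1.23. Map1lc3b, which encodes LC3B, fell by 0.54. The exceptions were Atg16l1 and Ulk2, which rose by 0.49 and 0.28. Genes of multivesicular bodies and extracellular vesicles were lower in 14 of 25 tested members and higher in 5, with a smaller median of -0.19. Flot1 (flotillin) fell by 0.90 and the tetraspanin gene Cd63 by 0.56, while the sorting adaptor gene Stam2 rose by 0.57.

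**Figure D3:**
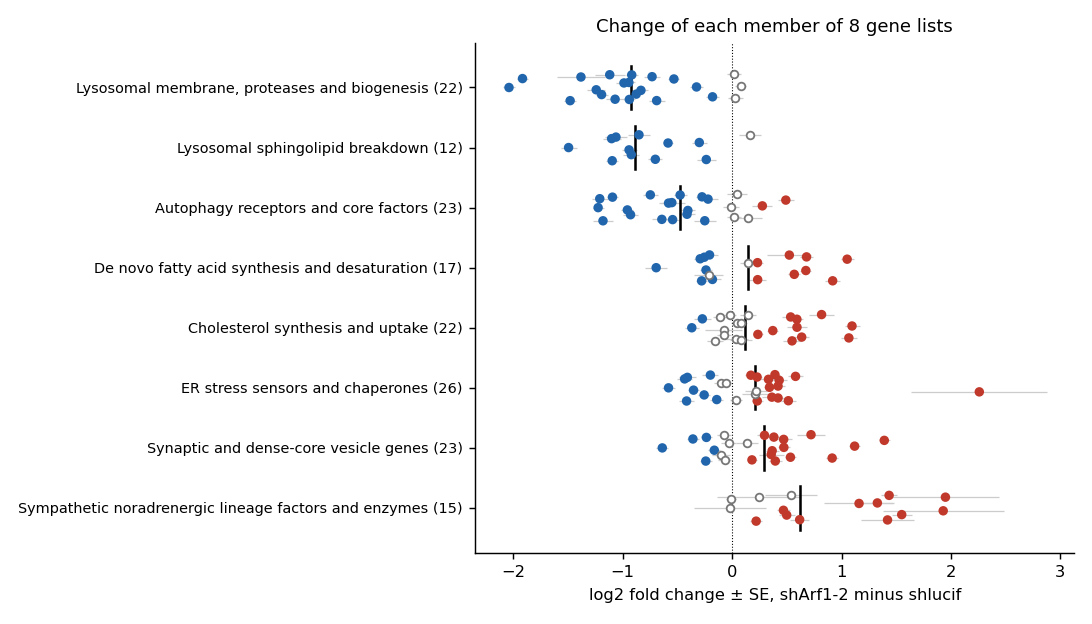
Log2 fold change with its standard error for each tested member of 8 gene lists, filled red or blue where the adjusted p was under 0.05 and open where it was not, with the list's median as a black bar. The lysosomal and autophagy lists lie almost wholly to the left, the sympathetic list to the right, and the fatty acid, cholesterol and ER stress lists spread to both sides of 0.

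The series was designed to ask how Arf1 acts on lipid metabolism, and with shArf1-2 the genes of fatty acid synthesis split. Of 17 tested genes of de novo synthesis and desaturation, 8 were higher and 7 lower, with a median of 0.145. Fasn, which encodes fatty acid synthase, was at 56.4, 54.8 and 49.9 FPKM with shlucif and at 116, 115 and 119 FPKM with shArf1-2. The rise was 1.05 on the log2 scale (SE 0.06, adjusted p = 2.58e-15, edgeR), the largest of the set. Elovl6, which extends the palmitate that Fasn makes, went from 6.29, 6.52 and 6.25 FPKM to 12.8, 12.7 and 12.4 FPKM, a rise of 0.92. Acaca, the acetyl-CoA carboxylase that feeds Fasn, went from 4.89, 5.04 and 4.47 FPKM to 7.79, 8.16 and 8.29 FPKM, a rise of 0.68.

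The main desaturase of these cells, Scd2, was at 214, 231 and 220 FPKM against 376, 385 and 356 FPKM, a rise of 0.67. Fads2 rose by 0.57 and Acly, the citrate lyase, by 0.23. Among the genes that fell, Elovl7 did so by 0.69, Fads1 by 0.29, Elovl5 by 0.28 and the citrate carrier Slc25a1 by 0.25.

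The SREBP transcription factors that drive these enzymes moved little in transcript level. Srebf1 was at 86.7, 81.4 and 83.1 FPKM with shlucif and at 94, 95.7 and 95.5 FPKM with shArf1-2, a change of 0.11 that did not pass (adjusted p = 0.0712, edgeR). The groups did not overlap in FPKM, and it passed the threshold under 7 of the alternative analyses. Srebf2, the factor of cholesterol genes, fell by 0.35 from 175, 173 and 172 FPKM to 146, 142 and 140 FPKM, and Insig2, which retains SREBPs in the ER, fell by 0.44. The protease gene Mbtps1 rose by 0.23. RNA levels say nothing of the cleavage that activates these proteins.

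Cholesterol genes leaned upward. Of 22 tested members, 10 were higher and 2 lower, with a median of 0.11. Hsd17b7, an enzyme of the late steps from lanosterol to cholesterol, was at 6.22, 6.22 and 6.24 FPKM with shlucif and at 14.3, 13.2 and 13.6 FPKM with shArf1-2, a rise of 1.07. Mvk, the mevalonate kinase, rose by 0.82. The members that fell were Stard4, a sterol carrier, by 0.37 and Msmo1, a methylsterol oxidase, by 0.27.

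**Figure D4:**
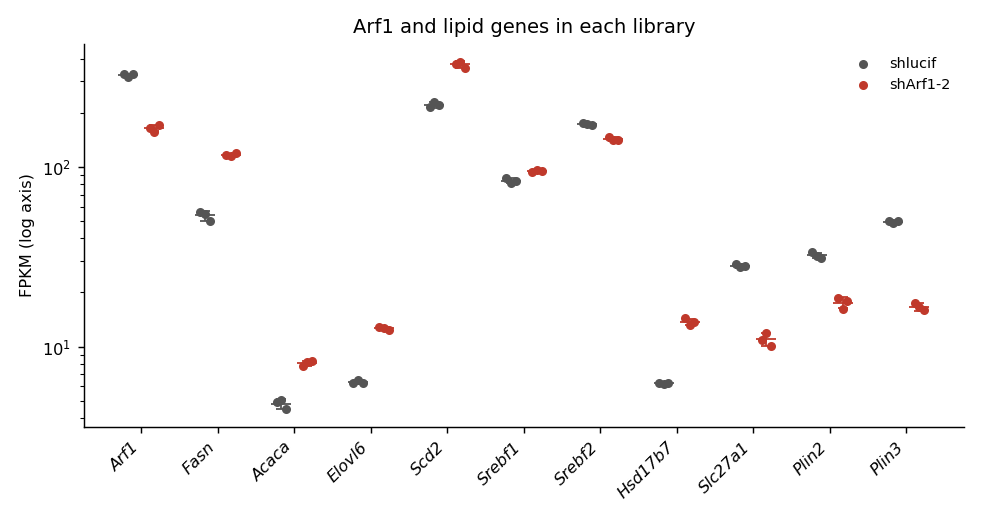
FPKM on a log axis of Arf1 and 10 lipid genes in each library, with shlucif in grey and shArf1-2 in red, and with the mean and SD of the 3 libraries as bars. Fasn, Acaca, Elovl6, Scd2 and Hsd17b7 lie higher with shArf1-2, Arf1, Srebf2, Slc27a1, Plin2 and Plin3 lower, and Srebf1 differs little.

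Fatty acid uptake genes fell and rose. Slc27a1 (FATP1), a long-chain fatty acid transporter, was at 28.9, 27.6 and 28 FPKM with shlucif and at 10.8, 12 and 10.1 FPKM with shArf1-2, a fall of 1.43. Slc27a3 and Slc27a4 rose by 0.69 and 0.49, and Slc27a6, which had 11 to 27 counts per library, had a change of 0.16 (adjusted p = 0.729, edgeR). Slc27a2 and Slc27a5 had at most 5 counts in any library and were not tested. Cd36, a scavenger receptor that takes up fatty acids, had 136, 105 and 106 counts against 0 in every shArf1-2 library, at least 126-fold lower. It also stands in the macrophage marker list, as 1 of its 35 genes. Fabp4, the fatty acid binding protein of adipocytes and macrophages, had 236, 225 and 258 counts against 0 in each shArf1-2 library, at least 261-fold lower. Acsl5, an acyl-CoA synthetase, rose by 0.87 and Acsl4, the more abundant one, fell by 0.38.

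Of 18 tested lipid droplet genes, 5 were higher and 6 lower, shares near those of all tested genes. The droplet coat gene Plin3 went from 49.9, 48.7 and 49.7 FPKM to 17.4, 16.6 and 15.9 FPKM, a fall of 1.64, and Plin2 went from 33.4, 31.8 and 31.2 FPKM to 18.6, 16.3 and 17.8 FPKM, a fall of 0.94. Soat1, which esterifies cholesterol, fell by 1.88 and the triglyceride lipase gene Pnpla2 by 0.76. Lpin1, a phosphatidate phosphatase, was lower, with a log2 change of -1.4985. Mgll, the monoacylglycerol lipase, stood apart with a rise of 2.26 from 57, 42 and 49 counts to 274, 219 and 283. Of the acyltransferases of glycerolipid synthesis, Agpat2 rose by 0.53 and Gpat3 by 0.56, and Dgat1 and Dgat2, which make triglyceride, did not pass.

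In beta-oxidation, 4 of 18 tested genes were higher and 7 lower. Cpt1a, the carnitine transferase that admits fatty acids to mitochondria, rose by 0.72 from 8.62, 8.46 and 7.47 FPKM to 14.8, 13.4 and 14.4 FPKM, while the dehydrogenase genes Acads and Acadl fell by 0.77 and 0.72. In ceramide and sphingolipid synthesis, 3 of 17 were higher and 6 lower. Sgms2, a sphingomyelin synthase, fell by 1.35 and the ceramide synthase gene Cers4 by 0.94, while Degs1, which makes ceramide from dihydroceramide, rose by 0.33. Neither list had a median beyond 0.10 in size.

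The PI3K, AKT and mTOR genes divided evenly, with 11 of 28 tested members higher and 11 lower. Pik3r3, a regulatory subunit of PI3K, was at 3.13, 3.16 and 3.2 FPKM with shlucif and at 8.77, 8.55 and 8.38 FPKM with shArf1-2, a rise of 1.37, and Pik3r2 rose by 0.74. The kinase gene Mtor rose by 0.45. Deptor, an inhibitor within the mTOR complexes, went from 13.4, 14 and 12.6 FPKM to 5.8, 6.04 and 4.94 FPKM, a fall of 1.32, and Tsc1 and Rictor fell by 0.66 and 0.55. Akt1 rose by 0.14 with overlapping groups, and Rps6kb1, the S6 kinase gene, had a change of 0.08 (adjusted p = 0.414, edgeR).

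In the ER stress list, 13 of 26 tested members were higher and 8 lower. Hspa5, the chaperone BiP, rose by 0.34 from 193, 198 and 203 FPKM to 265, 259 and 266 FPKM, Herpud1 by 0.58 and Xbp1 by 0.33. The sensor genes went the other way, with falls of 0.43 for Ern1, 0.41 for Eif2ak3 and 0.26 for Atf6. Atf4, the effector of the amino acid and ER stress response, went from 250, 237 and 233 FPKM to 392.1, 381 and 392.2 FPKM, a rise of 0.62, and Atf5 rose by 1.07. Of 26 tested members of the list of Atf4 and its targets, 9 were higher and 9 lower, again near the shares of all tested genes. Chac1 rose by 0.82, whereas Ddit3 (CHOP), which is linked to cell death under ER stress, went from 46.8, 42.3 and 48.6 FPKM to 31.7, 32.7 and 30.8 FPKM, a fall of 0.61. The serine synthesis gene Phgdh fell by 0.54.

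Genes of calcium transfer between ER and mitochondria were higher in 8 and lower in 10 of 23 tested members. Itpr3, a calcium release channel of the ER, fell by 3.20 from 497, 430 and 413 counts to 41, 58 and 59. Mcu, the pore of the mitochondrial calcium uniporter, went from 5.82, 5.96 and 6.28 FPKM to 3.54, 3.84 and 3.53 FPKM, a fall of 0.80. The calcium pump gene Atp2a2 rose by 0.53. Of 11 tested genes of mitochondrial DNA maintenance, 2 were higher and 4 lower. Polg2, the accessory subunit of the mitochondrial DNA polymerase, fell by 0.95, and Tfam, which packages mitochondrial DNA, rose by 0.18, a call that was lost under 7 of the alternative analyses.

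Innate immune genes were lower, as the macrophage markers were. Of 24 tested genes of the cGAS-STING, inflammasome and interferon list, 20 were lower and 0 higher, with a median of -1.77. Bst2 (tetherin), an interferon-induced membrane protein, was at 148, 124 and 131 FPKM with shlucif and at 36, 35.9 and 29.5 FPKM with shArf1-2, a fall of 2.06. Isg15, a ubiquitin-like interferon product, had 262, 224 and 187 counts against 45, 59 and 54, and Irf7, an interferon regulatory factor, had 302, 262 and 214 against 10, 15 and 15. The groups were thus apart in each of these genes. Sting1 fell by 0.52, and Cgas, the DNA sensor upstream of it, had a change of 0.14 (adjusted p = 0.548, edgeR). The inflammasome genes Nlrp3 and Casp1, both typical of myeloid cells, fell by 3.83 and 4.56 from under 2 FPKM.

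None of the 9 tested COPI coatomer genes changed by 2-fold, with 2 higher and 2 lower and a range from -0.22 to 0.34. The COPII coat, which carries cargo out of the ER, had 4 of 12 tested genes higher and 3 lower. Among 22 tested Arf exchange factors and GTPase-activating proteins, 6 were higher and 9 lower. Gbf1, the Golgi exchange factor of Arf1, rose by 0.44. Cyth3, a cytohesin that activates Arf6 and Arf1 at the plasma membrane, was at 9.19, 8.43 and 8.59 FPKM with shlucif and at 29.3, 29.1 and 30 FPKM with shArf1-2, a rise of 1.68. Arfgap3, which acts on Golgi Arf1, fell by 0.78.

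In the cell division list, 8 of 32 tested genes were higher and 16 lower. Mitotic genes were among those higher, with rises of 0.51 for Plk1 and Aurka and 0.48 for Ccnb1. The replication helicase genes Mcm2, Mcm3, Mcm4, Mcm5 and Mcm6 were lower, by 0.26 to 0.43, and Mcm7 rose by 0.20. Ccnd1, which encodes cyclin D1, went from 71.4, 68.7 and 67.5 FPKM to 35.4, 37.4 and 37 FPKM, a fall of 0.99. Of 13 tested p53 response genes, 4 were higher and 6 lower. The pro-apoptotic genes Bbc3 (PUMA) and Pmaip1 (NOXA) were lower, Bbc3 by 1.20 and Pmaip1 at least 60.2-fold, from 60, 56 and 50 counts to 0 in every shArf1-2 library, while Ccng1 rose by 0.78.

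**Figure D5:**
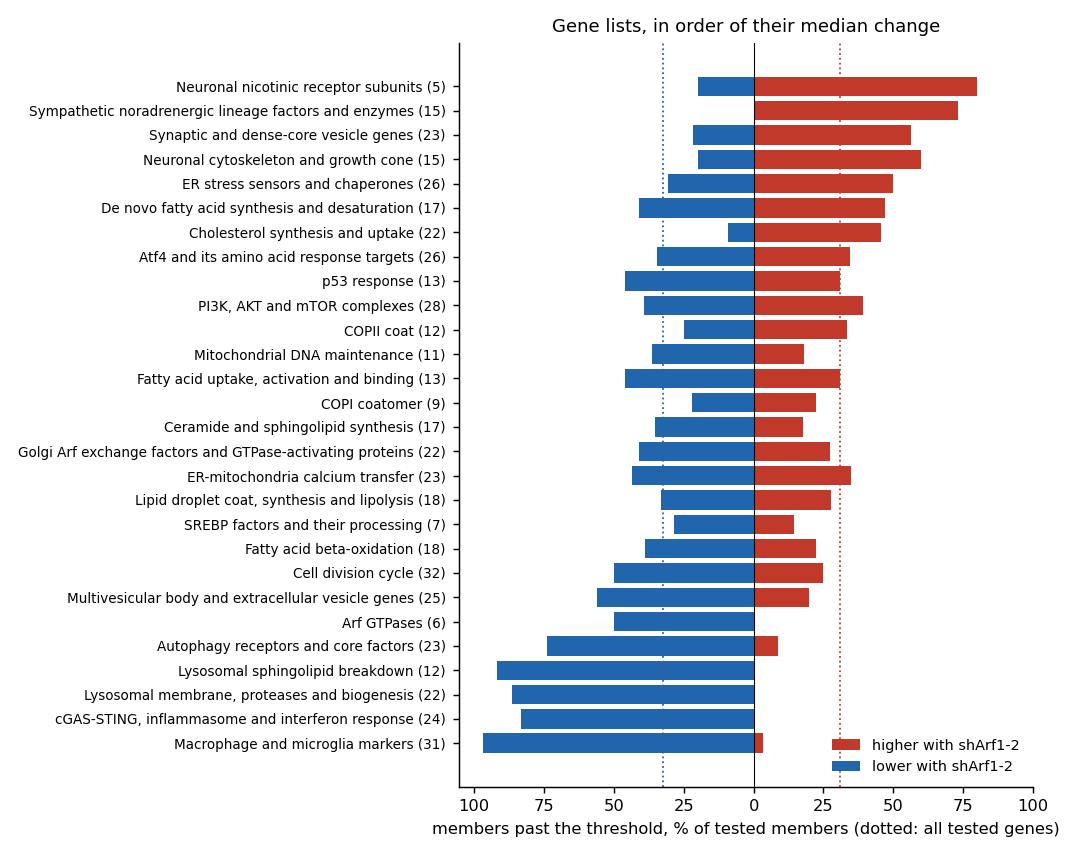
Share of tested members of each list past the threshold, higher to the right in red and lower to the left in blue, in the order of the list medians, with the number tested in parentheses and the shares over all tested genes (30.9% higher, 32.6% lower) as dotted lines. The neuronal lists are at the top, and the lysosomal, interferon and macrophage lists at the bottom.

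Among single genes, the 10 largest rises with at least 5 CPM with shArf1-2 ran from 2.24 to 3.50 on the log2 scale. The first was Adgrf4, an adhesion G protein-coupled receptor, which went from 6, 10 and 12 counts to 132, 106 and 111. Slit3, an axon guidance ligand, went from 1094, 977 and 864 counts to 5345, 4723 and 5036, a rise of 2.24, and Nrp1, a receptor for guidance and growth factors, from 322, 284 and 252 to 1436, 1187 and 1360, a rise of 2.09. These 2 and Chrna3 led the genes with at least 5 CPM in all 6 libraries. The others among the largest rises included the lactate transporter gene Slc16a8, the potassium channel gene Kcnh6 and the matrix metalloproteinase gene Mmp15, with control counts of at most 41.

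By the fitted change, whose order depends on the prior count for genes at 0, the first 10 falls were Ctss, Spp1, Lpl, Ccl3, Emilin2, Myo1e, Tns3, Plk2, Gpnmb and Sirpa. Of these, 8 had 0 counts in every shArf1-2 library, and their lower bounds ran from 269-fold for Sirpa, a phagocyte receptor, to 648-fold for Ctss. In all, 199 genes had 20 or more counts in each control library and no more than 3 in each shArf1-2 library, and 0 genes had the opposite pattern. Not all of these 199 stand in the macrophage marker list. Prkaa2, Klf13 and Dyrk1a, none of them in that list, had 335, 228 and 198 counts summed over the control libraries and 0 with shArf1-2. Absence from the list does not show which cells a transcript came from, and this was not tested. With at least 5 CPM in all 6 libraries the falls were more moderate. Apoe, a lipid carrier protein of astrocytes and macrophages, had 1301, 1187 and 1016 counts against 95, 122 and 106, a fall of 3.56. Lgals9, a galectin, fell by 2.60, Cnn2, an actin-binding calponin, by 2.53 and the integrin gene Itga5 by 2.21. Among the 9717 genes that met this level, 3271 were higher and 3107 lower, a balance that moves with the scaling of the libraries.

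By the pathway names in the deposited table, the highest share of higher genes among 296 pathways with at least 20 tested genes was in ribosome biogenesis (46 of 74), followed by nucleocytoplasmic transport (56 of 98), pyrimidine metabolism (25 of 46), aminoacyl-tRNA biosynthesis (22 of 44), taste transduction (15 of 30) and mRNA surveillance (42 of 88). Over all tested genes with a pathway, 28.9% were higher and 37.2% lower. The ribosome itself went the other way, with 79 of 127 tested genes lower and 17 higher, and ribosomal protein genes took between 7.06% and 7.64% of the counts with shlucif and between 5.79% and 5.87% with shArf1-2. The highest shares of lower genes were in pathways named for DNA adducts (15 of 20), COVID-19 (127 of 174), rheumatoid arthritis (36 of 51), type I diabetes (14 of 20), malaria (18 of 26) and leukocyte transendothelial migration (53 of 79). A gene can stand in several pathways, so these counts are not of separate genes. How far the COVID-19 and ribosome genes overlap was not counted. In the pathway named Lysosome, 73 of 113 tested genes were lower and 16 higher. No test was made on these shares, and genes with longer annotated models were more often higher, with 22.7% higher in the shortest of 5 equal length classes and 39.5% in the longest.

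The 2 hairpins were tested against each other in a direct contrast of their group levels, without those of the control. The gene filter, the scaling and the spread came from the fit of all 3 groups, control libraries included. They differed in 1798 genes (14.4% of those tested), 869 upward and 929 downward with shArf1-2, and 80 by at least 2-fold. The count fell to 1159 without shArf1-1 replicate 1 and to 1194 without shArf1-2 replicate 1. Arf1 was 0.34 higher with shArf1-2 than with shArf1-1 (adjusted p = 1.16e-05, edgeR). Among genes that reached 5 CPM with the hairpin where they were higher, and whose libraries did not overlap between hairpins, the largest difference upward was in Kcnt1, a sodium-activated potassium channel, with 66, 93 and 60 counts with shArf1-2, 30, 12 and 22 with shArf1-1 and 107, 114 and 93 with shlucif. Septin10, a cytoskeletal GTPase, had 1878, 1578 and 1600 counts with shArf1-2, close to the 1813, 1828 and 1825 with shlucif, and 683, 571 and 883 with shArf1-1. In these genes the shArf1-2 libraries lay nearer to the control.

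In the other direction St18, a zinc finger transcription factor, had 144, 131 and 127 counts with shArf1-2 and 243, 188 and 301 with shArf1-1, against 65, 42 and 37 with shlucif. Ccnd1 was 0.80 lower with shArf1-2 than with shArf1-1, and the nicotinic gene Chrna3 0.46 lower. Mycn was 0.67 lower with shArf1-2 than with shArf1-1. Slc27a1 was 0.65 higher with shArf1-2. For Fasn the difference of 0.16 did not pass (adjusted p = 0.0671, edgeR), nor did that of 0.01 for Acaca (adjusted p = 0.93). Beside 14.4% of all tested genes, 1 of 17 differed between the hairpins in the fatty acid synthesis list and 5 of 22 in the lysosomal membrane list. Larger shares included 7 of 15 in the sympathetic list, 6 of 9 in the COPI list and 7 of 12 in the COPII list. The synaptic and dense-core vesicle list had 11 of 23 and the cell division list 12 of 32. In the macrophage list 1 of 31 differed, but 26 of its 35 markers had at most 3 counts in every shArf1-2 library. Ctss and Ccl3 were at 0 in every library of both hairpins, where no difference can be found, so this count does not show that the hairpins were alike.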

How the data were processed

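RNA-seq libraries of 9 samples of Neuro-2a cells were analysed, 3 each with shlucif, shArf1-1 and shArf1-2, grouped by the hairpin in the labels. The authors enriched polyadenylated RNA with oligo(dT), fragmented it and primed cDNA at random. The deposited table held raw read counts per gene, and FPKM values that the authors had scaled to library size and gene length. The submitters' processing notes name mm10, but only 501 of 21782 nuclear genes had the start given for them in GENCODE M21 (GRCm38), so the table's own coordinates were not used. The aligner, counter and strand setting are not given in the sources used here, so overlapping and near-identical genes may share reads.

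Counts of 12448 genes that passed filterByExpr, of 21899, were tested with edgeR 4.0.16 (TMM scaling, robust quasi-likelihood fit of all 3 groups, Benjamini-Hochberg adjustment, threshold 0.05). FPKM are printed as levels only. DESeq2 1.42.0 and limma 3.58.1 served as alternatives, and the scripts were tested on simulated data. Totals ran from 11182479 to 15594615 counts, and their number limits the precision of low genes. Lower bounds set a group at 0 to 3 counts over the group and cover counting error only. Members and lists were chosen with earlier results of these data known.

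Named were Arf1, the lipid genes that the study names, the 10 largest fitted changes in each direction (a mean of 5 CPM or more where higher, groups not overlapping), the same with 5 CPM in all 6 libraries, up to 3 members per direction and the most abundant ones of each list, and the 5 largest differences between hairpins in each direction. Some genes that met these rules are not reported here. Other genes named in the text were chosen after their values were seen. Replicate numbers did not pair the libraries. Promoters come from RefSeq (GRCm38.p6), and coordinates and transcripts from GENCODE M21 (GRCm38).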

Additional observations from a re-analysis of the deposited data

Results flagged for a closer look

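Each gene here was singled out because the direct edgeR contrast of the hairpins, shArf1-2 minus shArf1-1, passed the threshold. Arf1 differed by 0.34 (adjusted p = 1.16e-05) and the fatty acid transporter gene Slc27a1 by 0.65 (adjusted p = 6.41e-08), both falling less with shArf1-2.

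Of the genes higher with shArf1-2 than with shArf1-1, Kcnt1 differed by 1.65, Hhatl by 1.52, Insl6 by 1.22 and Septin10 by 1.12. Against shlucif, Insl6 fell by 1.35 with shArf1-2 and by 2.57 with shArf1-1, whereas Hhatl had a change of 0.22 that did not pass with shArf1-2 and fell by 1.30 with shArf1-1. Of the genes lower with shArf1-2, St18 differed by -0.98, Taf13 by -0.95, Mab21l2 by -0.93, Gk5 by -0.90 and Fam114a1 by -0.88. Taf13, which encodes a subunit of the general transcription factor TFIID, fell by 0.44 with shArf1-2 and rose by 0.51 with shArf1-1.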

How the results depend on the processing

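A test against a log2 fold change of 1 (glmTreat) left 910 genes, 195 higher and 715 lower. Leaving out 1 library gave 7315 to 8200 genes past the threshold, 3536 to 3958 higher, 3779 to 4242 lower, an Arf1 change of -1.08 to -1.01, and 1159 to 1977 genes that differed between the hairpins, lowest without shArf1-1 replicate 1 and 1194 without shArf1-2 replicate 1. Slc27a6, at 0.16 with all libraries, ranged from -0.076 without shlucif replicate 2 to 0.334 without shlucif replicate 3, and was at -0.054 without shArf1-2 replicate 1. With the replicate block 3859 genes were higher and 4080 lower, and same-numbered libraries correlated between -0.082 and 0.094, so the numbers were not taken to pair the libraries. Scaling to library totals alone moved the share of higher calls from 48.7% to 56.5% and the median of all genes to 0.073, and DESeq2 called 3587 higher and 4022 lower. Of 191 named genes, 177 kept direction and side of the threshold under every alternative that gave them a value, among which the test against a log2 fold change of 1 was not applied to single genes and the filter of 10 counts removed some of them. With at least 10 counts in every library the macrophage list kept 1 lower gene, since its members are near 0 with shArf1-2. Depth limits such genes to lower bounds.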
